A study of Oryza sativa with 6 samples.

Results

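The phenylpropanoid and lignin pathway was followed in rice leaves through the 54 listed transcripts that the authors' deposited annotation assigns to the KEGG map of phenylpropanoid biosynthesis. They come from 54 genes, among 7194 transcripts of 6535 genes in the deposited table. Members were taken by that assignment alone and sorted into groups of enzymes by their descriptions, among them 20 peroxidases, 9 beta-glucosidases and related glycoside hydrolases, 6 phenylalanine ammonia-lyases (PAL), 6 4-coumarate:CoA ligases (4CL), 3 acyltransferases, 3 cinnamoyl-CoA reductases, 2 dehydrogenases, 2 unclassified proteins, and 1 each of a cytochrome P450 and a peroxiredoxin.

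Poly(A) RNA was sequenced from leaves of 4-week-old rice, with 2 libraries for each of 3 genotypes and no treatment. The first genotype was nontransgenic rice (WT). The second overexpressed the microRNA gene MIR171f in the whole plant (OX), with 1 library each from the transgenic lines Ox_3 and Ox_5. The third consisted of CRISPR-Cas9 knockout mutants of mir171f (KO), with 1 library each labelled K/O_2 and K/O_2_1. The promoter of the transgene, the mutant alleles, the rice cultivar and the relation between the 2 KO libraries are not stated in the labels. Whether the 2 libraries of WT, or those of KO, come from separate plants is not stated either. The p-values measure only the spread between libraries, which in WT and in KO may be technical. The precursor of MIR171f is not among the listed descriptions, so its level is not analysed here. miR171 is known to direct the cleavage of transcripts for GRAS-family transcription factors of the SCARECROW-LIKE6 type, and the series concerns the effect of this pair on drought tolerance and flavonoid genes.

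The phenylpropanoid pathway begins when PAL removes the amino group of phenylalanine to give cinnamate. Hydroxylation and activation by 4CL give p-coumaroyl-CoA, the branch point from which flavonoids and monolignols are made. Acyltransferases, methylating enzymes, cinnamoyl-CoA reductases and alcohol dehydrogenases then shape the monolignols, which peroxidases and laccases oxidise in the cell wall to build lignin. Beta-glucosidases can release monolignols and other phenolics from their stored glucosides. In grass leaves, lignin is found mainly in veins and their fibres, while soluble phenolics also accumulate in other leaf cells.

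The libraries held 28374268 to 33404964 reads in all. Levels are CPM, counts relative to the authors' effective library total, and fold changes are log2 differences between groups, each with its SE, from edgeR's quasi-likelihood test with n = 2 libraries per group. A transcript was called higher or lower at a Benjamini-Hochberg adjusted p below 0.05. The authors listed only transcripts that had passed a fold change of 2 and an unadjusted p of 0.05 in 1 or more of their own comparisons, so every member had to differ between some pair of groups and counts of calls are given as a description. Each comparison with WT uses the same WT libraries. Leaf identity was checked with 14 listed chlorophyll a/b-binding and Rubisco small subunit transcripts, which together reached 74235 and 78425 CPM in WT, 28075 and 30204 CPM in OX and 46851 and 46009 CPM in KO. Of these 14 mesophyll transcripts, 13 were called lower in OX than in WT, 12 lower in KO than in WT and 12 lower in OX than in KO. These were 92.9%, 85.7% and 85.7% of the 14. Of all listed transcripts tested, 19.0%, 11.0% and 25.0% were called lower in the same comparisons. The pathway's levels moved beside this fall of mesophyll transcripts. In bulk leaf RNA, fewer cells of a type and less RNA per cell cannot be told apart, and the part of either in the results was not tested.

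Across the pathway, most of the members called against WT were higher, in both genotypes. In OX, 23 of the 53 tested members were called higher than in WT and 8 lower. Of all 7034 listed transcripts tested, 44.1% were called in that comparison, 25.0% higher and 19.0% lower, against 43.4% higher and 15.1% lower among members. In KO, 18 members were called higher than in WT and 4 lower, where 25.0% of all tested transcripts were called higher and 11.0% lower. Among members these shares were 34.0% and 7.55%. The shares of lower calls against WT thus lay near the background in both genotypes. Between OX and KO, 16 members were higher in OX and 16 lower, beside a background of 38.3% called, 13.3% higher and 25.0% lower. The median log2 fold change of members was 0.74 in OX and 0.91 in KO when each was set against WT, and -0.59 when OX was set against KO, where the medians over all tested transcripts were 0.28, 0.43 and -0.41. With library sizes scaled on the listed transcripts in place of the authors' totals, the split of KO against WT became 14 higher and 9 lower with DESeq2 size factors and 16 and 9 with TMM factors, and that of OX against KO became 17 and 8 with either. One peroxidase, Os08g0532700, was too low to be tested and lay between 0.0585 and 0.499 CPM in all libraries.

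**Figure D1:**
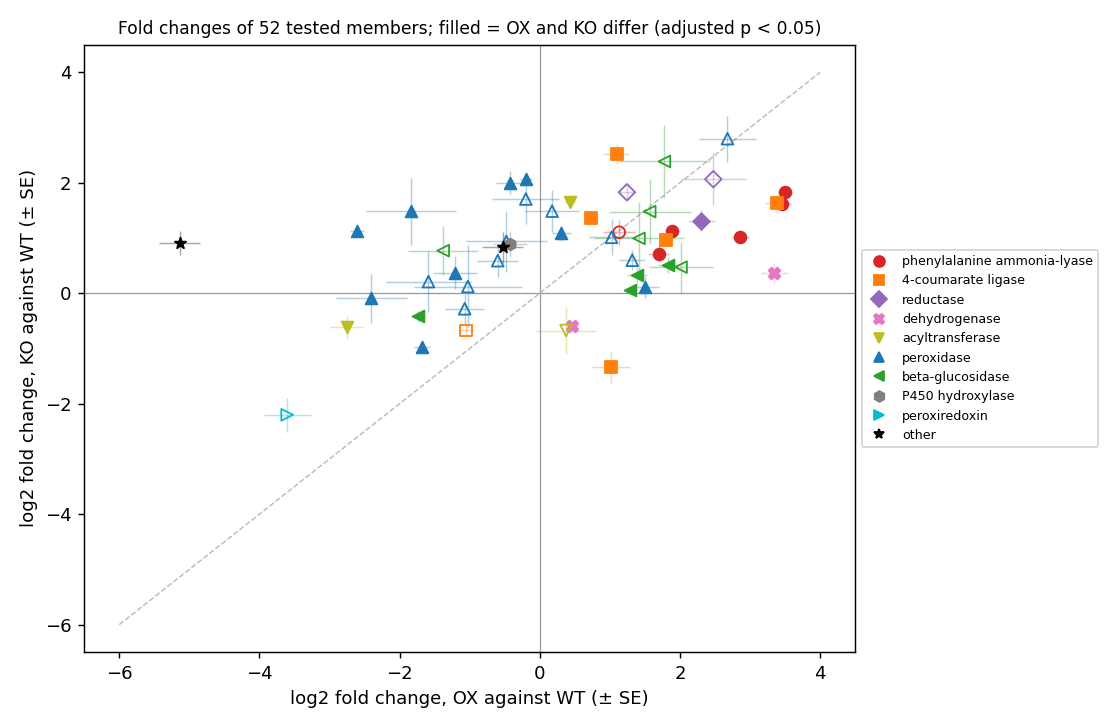
The log2 fold change of 52 tested members is plotted for OX against WT (horizontal axis) and KO against WT (vertical axis), with bars of 1 SE, and filled symbols mark members called different between OX and KO. Both axes use the same WT libraries, and the dashed line marks equal change. All 6 PAL transcripts lie above 0 on both axes, while the unclassified member Os06g0320200 lies farthest to the left at -5.14.

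PAL, the entry enzyme, rose as a group. All 6 listed PAL transcripts were called higher in OX than in WT and in KO than in WT, and 5 of the 6 were higher in OX than in KO. Of all tested transcripts, 25.0% were called higher in each comparison with WT and 13.3% in OX against KO. With either scaling on the listed transcripts, 4 PAL transcripts were called higher in KO than in WT. Summed over the 6 transcripts and scaled to transcript length, the PAL level was 22.3 and 25.3 CPM per kb in WT, 138 and 149 CPM per kb in OX and 55.6 and 55.5 CPM per kb in KO. The OX libraries were the highest and the KO libraries intermediate, with no overlap between groups.

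Os04g0518400 had the largest log2 rise of any member described in OX. It stood at 8.79 and 10.3 CPM in WT, 104 and 112 CPM in OX and 33.9 and 34.1 CPM in KO, a log2 fold change of 3.50 ± 0.11 for OX against WT (adjusted p = 7.97e-05) and 1.83 ± 0.10 for KO against WT (adjusted p = 0.000348). Os02g0626100 measured 13.6 and 15.7 CPM in WT, 102 and 111 CPM in OX and 32.2 and 27.3 CPM in KO. Its log2 fold change was 2.86 ± 0.13 for OX against WT (adjusted p = 0.000189), 1.03 ± 0.12 for KO against WT (adjusted p = 0.00526) and 1.84 ± 0.12 for OX against KO (adjusted p = 0.000677). Both OX libraries exceeded every KO library, and both KO libraries exceeded every WT library, for each of these PAL transcripts. Os02g0627100 rose from a low level and was at 3.56 and 3.06 CPM in WT, 36.6 and 35.9 CPM in OX and 9.85 and 10.5 CPM in KO. Its change was 3.45 ± 0.13 in OX (adjusted p = 0.000126) and 1.62 ± 0.12 in KO (adjusted p = 0.00108), both on the log2 scale and against WT.

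Os02g0626400, the PAL transcript with the highest level per length in WT at 8.01 CPM per kb, was at 19.2 and 22.3 CPM in WT, 73.1 and 80.3 CPM in OX and 44.2 and 46.7 CPM in KO. The log2 fold change against WT was 1.88 ± 0.10 in OX and 1.13 ± 0.10 in KO. Os04g0518100 was at 8.36 and 9.38 CPM in WT, 27.0 and 30.5 CPM in OX and 13.1 and 16.1 CPM in KO, a log2 fold change against WT of 1.69 ± 0.15 in OX and 0.72 ± 0.15 in KO (adjusted p = 0.0444). Os05g0427400, the PAL member with the lowest level per length in every group, was at 2.63 and 2.85 CPM in WT, 5.45 and 6.58 CPM in OX and 6.67 and 5.12 CPM in KO. Its OX and KO libraries overlapped, and the log2 difference between OX and KO was 0.03 ± 0.22 (adjusted p = 1).

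The weaker PAL calls depended on the processing. For Os05g0427400, the call in OX against WT ended with size factors from DESeq2 (0.0572), under the replicate block (0.0787) and without any 1 of the 6 libraries (0.05003 to 0.182), and that in KO against WT ended with size factors from DESeq2 (0.270), with TMM factors (0.183), under the replicate block (0.0995) and without any 1 of the 6 libraries (0.0794 to 0.207). For Os04g0518100, the call in KO against WT ended with size factors from DESeq2 (0.947), with TMM factors (0.459) and without any 1 of the 6 libraries (0.0673 to 0.202), and that of OX against KO ended without library OX 1 or 2 or KO 1 (0.0542 to 0.0894). The call of Os02g0626400 in OX against KO ended without library OX 2 or KO 1 or 2 (0.0550 to 0.0694). These values in brackets are adjusted p-values, here and in the passages on the other enzymes.

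PAL genes lie in tandem on the IRGSP-1.0 assembly. Os02g0626100, Os02g0626400 and Os02g0627100 occupy chromosome 2 between positions 24973450 and 25009018, and Os04g0518100 and Os04g0518400 lie on chromosome 4 between 25906878 and 25929716. Near-identical neighbours may share reads, and whether reads were counted by strand is not given, so the division of reads within a tandem group is uncertain. Os02g0626100 had 3 listed transcripts, of which 1 is a member of the map. Their summed level was 15.7 and 17.5 CPM in WT, 105 and 114 CPM in OX and 34.2 and 30.8 CPM in KO. For Os02g0626400 the sum of its 2 listed transcripts was 22.0 and 26.5 CPM in WT, 87.5 and 89.4 CPM in OX and 49.9 and 50.3 CPM in KO. For both genes the order of the groups in the sums was that of the member transcript.

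**Figure D2:**
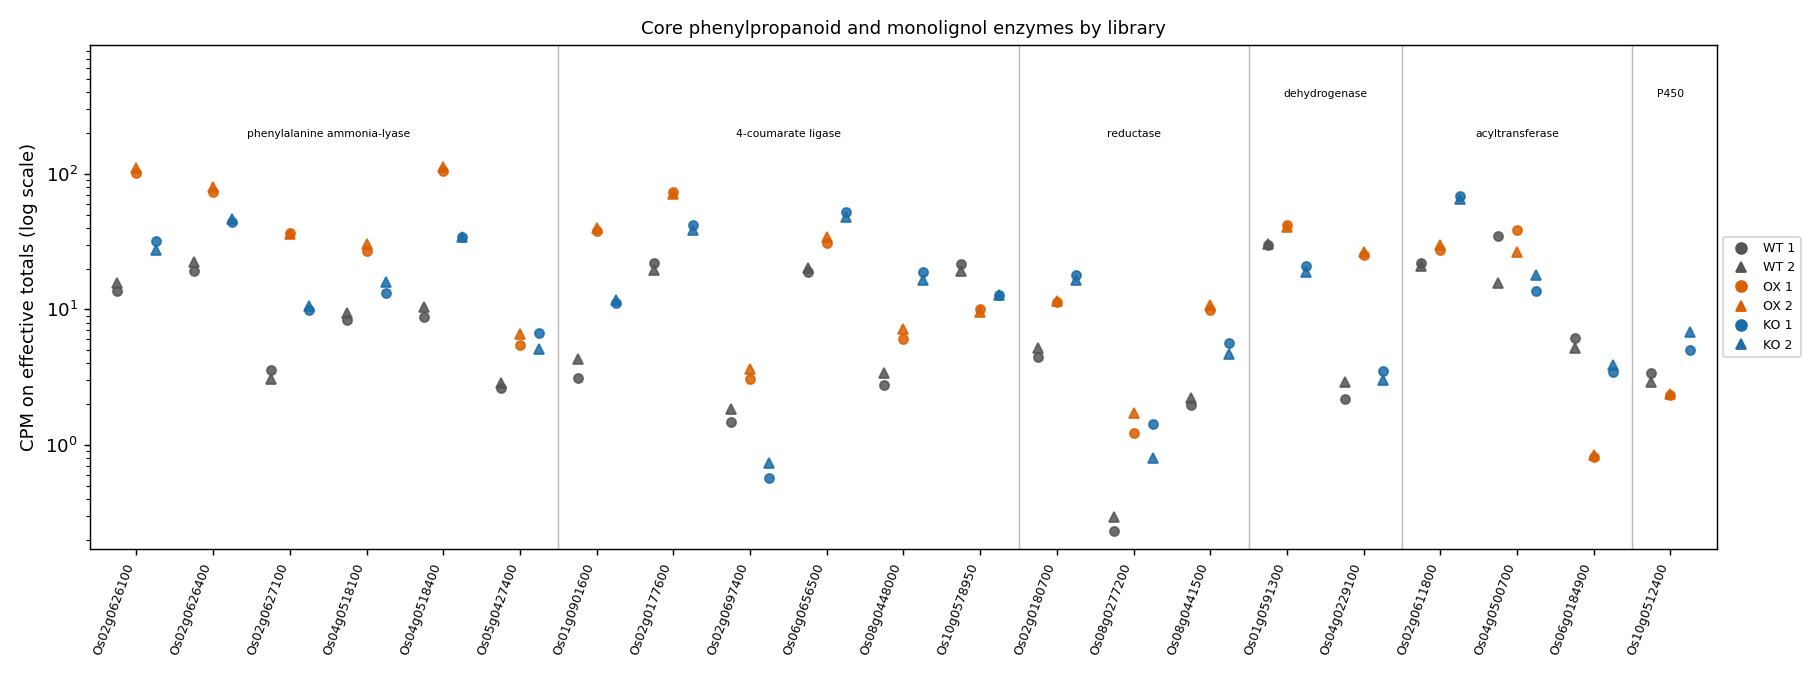
CPM of core phenylpropanoid and monolignol enzymes on a log axis, one symbol per library, with WT in grey, OX in orange and KO in blue, grouped by enzyme. For 5 of the 6 PAL transcripts the OX symbols stand above the KO symbols and these above the WT symbols. How many of all listed transcripts have this order was not counted. The 4CL members differ in whether OX or KO is higher.

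The 6 transcripts grouped as 4CL, an enzyme that activates coumarate and related acids, divided between the genotypes. Os01g0901600 and Os10g0578950 are described only as 4CL-like and are included in the counts and sums of this group. Compared with WT, 4 of 6 were higher and 1 lower in OX, and 4 higher and 1 lower in KO. These were 66.7% higher and 16.7% lower in each genotype. The shares of all tested transcripts were 25.0% and 19.0% in OX and 25.0% and 11.0% in KO. Between OX and KO, 3 were higher in OX and 2 lower, or 50% and 33.3%, beside 13.3% and 25.0% of all tested transcripts. With scaling on the listed transcripts, by DESeq2 size factors or TMM factors, the split was 4 higher and 2 lower for KO against WT and 3 and 1 for OX against KO. Their summed level was 36.4 and 35.4 CPM per kb in WT, 79.8 and 81.5 CPM per kb in OX and 68.8 and 64.5 CPM per kb in KO.

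Os02g0177600, described as similar to 4CL 1, measured 22.0 and 19.4 CPM in WT, 73.1 and 70.8 CPM in OX and 41.9 and 38.6 CPM in KO. Its log2 fold change against WT was 1.80 ± 0.09 in OX (adjusted p = 0.000270) and 0.96 ± 0.09 in KO (adjusted p = 0.00234), and OX exceeded KO by 0.84 ± 0.09 (adjusted p = 0.00374). The 4CL-like transcript Os01g0901600, for which the description gives no substrate, stood at 3.10 and 4.27 CPM in WT, 37.7 and 39.5 CPM in OX and 11.1 and 11.7 CPM in KO. It rose in OX by a log2 fold change of 3.39 ± 0.18 and in KO by 1.63 ± 0.17, and its OX libraries exceeded both KO libraries.

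Os08g0448000 and Os06g0656500, also similar to 4CL 1, had the opposite order and were highest in KO. Os08g0448000 measured 2.79 and 3.39 CPM in WT, 6.05 and 7.19 CPM in OX and 18.8 and 16.6 CPM in KO, a log2 fold change of 2.52 ± 0.18 in KO against WT (adjusted p = 0.000943) and 1.10 ± 0.18 in OX against WT (adjusted p = 0.0157). Os06g0656500 measured 18.8 and 20.2 CPM in WT, 31.0 and 34.0 CPM in OX and 52.2 and 48.3 CPM in KO, and its log2 fold change was 1.36 ± 0.09 in KO and 0.74 ± 0.09 in OX, both against WT. On the log2 scale the difference of OX from KO was -1.42 ± 0.18 for Os08g0448000 and -0.63 ± 0.09 for Os06g0656500. For Os08g0448000, the call in OX against WT ended without library WT 1 or OX 2 (0.0724 to 0.0873), and that of OX against KO ended without library OX 1 or KO 1 (0.0531 to 0.0566). For Os06g0656500, the call of OX against KO ended with size factors from DESeq2 (0.113), with TMM factors (0.217) and without library OX 1 or KO 1 or 2 (0.0548 to 0.0879).

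Os02g0697400 was a low 4CL transcript, at 1.47 and 1.84 CPM in WT, 3.06 and 3.65 CPM in OX and 0.575 and 0.731 CPM in KO. With edgeR, OX against KO was the one comparison called for it, at 2.35 ± 0.30 on the log2 scale (adjusted p = 0.00690), and this call ended without library KO 1 (0.0568). In KO it was called lower than in WT with DESeq2 (log2 fold change -1.34, adjusted p = 0.0495), DESeq2 size factors (-1.82, 0.0181) and TMM factors (-1.73, 0.0215), and in OX it was called higher than in WT with plain totals (1.39, 0.0286). The 4CL-like transcript Os10g0578950 fell, from 21.6 and 19.3 CPM in WT to 10.1 and 9.56 CPM in OX and 12.8 and 12.8 CPM in KO. The log2 fold change was -1.06 ± 0.11 in OX (adjusted p = 0.00347) and -0.67 ± 0.11 in KO (adjusted p = 0.0211). The KO call ended with plain totals (0.0815) and without library WT 1, OX 1 or 2 or KO 1 or 2 (0.05003 to 0.137).

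The acyltransferases and the P450 had no common direction. Os02g0611800, similar to a hydroxycinnamoyltransferase, was at 21.9 and 20.8 CPM in WT, 27.5 and 30.1 CPM in OX and 68.4 and 65.0 CPM in KO, and KO was highest. Its log2 fold change was 1.64 ± 0.08 in KO against WT (adjusted p = 0.000279) and 0.43 ± 0.08 in OX against WT (adjusted p = 0.0268). The OX call ended with size factors from DESeq2 (0.148), under the replicate block (0.0598) and without any 1 of the 6 libraries (0.0583 to 0.131). Os06g0184900, described only as a transferase family protein, fell from 6.12 and 5.19 CPM in WT to 0.819 and 0.848 CPM in OX, where KO was at 3.45 and 3.91 CPM. The log2 fold change in OX was -2.76 ± 0.23 (adjusted p = 0.00138). Os04g0500700, similar to the same hydroxycinnamoyltransferase as Os02g0611800, measured 34.6 and 15.6 CPM in WT, 38.5 and 26.7 CPM in OX and 13.6 and 17.8 CPM in KO. The WT libraries lay far apart, and neither edgeR nor DESeq2 called a comparison. The cytochrome P450 Os10g0512400 measured 3.41 and 2.93 CPM in WT, 2.33 and 2.40 CPM in OX and 5.02 and 6.76 CPM in KO, and with edgeR OX against KO was called, at -1.32 ± 0.24 (adjusted p = 0.0273). That call ended with size factors from DESeq2 (0.0782), with TMM factors (0.0908), under the replicate block (0.0651) and without library OX 1 or 2 or KO 1 or 2 (0.0534 to 0.160).

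Cinnamoyl-CoA reductases, which commit hydroxycinnamoyl-CoA esters to monolignols, were called higher than in WT in OX for all 3 transcripts and in KO for 2 of 3. Of all tested transcripts, 25.0% were called higher than in WT in OX and 25.0% in KO. Os08g0441500 was at 1.97 and 2.22 CPM in WT, 9.95 and 10.8 CPM in OX and 5.68 and 4.72 CPM in KO, with a log2 fold change of 2.31 ± 0.20 in OX (adjusted p = 0.00139) and 1.31 ± 0.19 in KO (adjusted p = 0.0125). OX exceeded KO by 1.00 ± 0.19 (adjusted p = 0.0283). Os02g0180700 was highest in KO, at 4.49 and 5.19 CPM in WT, 11.4 and 11.5 CPM in OX and 17.8 and 16.6 CPM in KO, and its log2 fold change was 1.24 ± 0.13 in OX and 1.83 ± 0.14 in KO. The difference between OX and KO, -0.59 ± 0.13, had an adjusted p of 0.0530 with edgeR and 0.00765 with DESeq2, and was also called without either WT library (0.0491 and 0.0493). Os08g0277200 was low in WT, at 0.232 and 0.293 CPM in WT, 1.23 and 1.72 CPM in OX and 1.42 and 0.804 CPM in KO, and its log2 fold change in OX was 2.48 ± 0.46 (adjusted p = 0.0260). Its OX call ended under the replicate block (0.0629) and without library WT 1 or 2 or OX 1 or 2 (0.0676 to 0.150), and KO was called higher than WT with plain totals (0.0412) and DESeq2 (0.049999). For Os08g0441500, the KO call ended with size factors from DESeq2 (0.0629) and without library WT 1 or 2 or KO 1 (0.0516 to 0.0732), and that of OX against KO ended under the replicate block (0.0686) and without library OX 1 or 2 or KO 1 or 2 (0.0857 to 0.176).

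The dehydrogenases were higher in OX than in KO. Os04g0229100, similar to sinapyl alcohol dehydrogenase, an enzyme named for the reduction of sinapaldehyde to a monolignol, stood at 2.17 and 2.89 CPM in WT, 25.1 and 26.4 CPM in OX and 3.49 and 3.03 CPM in KO. OX exceeded WT by 3.35 ± 0.19 (adjusted p = 0.000381) and KO by 2.98 ± 0.19 (adjusted p = 0.000618) on the log2 scale, which was the largest excess of OX over KO among members. KO differed from WT by 0.37 ± 0.18 (adjusted p = 0.567). The aldehyde dehydrogenase Os01g0591300, similar to a cytosolic enzyme of maize, moved in opposite directions, at 29.8 and 30.2 CPM in WT, 41.8 and 40.7 CPM in OX and 21.0 and 18.9 CPM in KO. Its log2 fold change against WT was 0.46 ± 0.09 in OX (adjusted p = 0.0245) and -0.59 ± 0.09 in KO (adjusted p = 0.0122), and OX exceeded KO by 1.05 ± 0.09 (adjusted p = 0.00141). The OX call against WT ended with size factors from DESeq2 (0.113) and without library WT 1 or 2 or OX 1 or 2 (0.0983 to 0.138), and the KO call ended with plain totals (0.0548) and without library WT 1 or 2 or KO 2 (0.0534 to 0.0816).

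**Figure D3:**
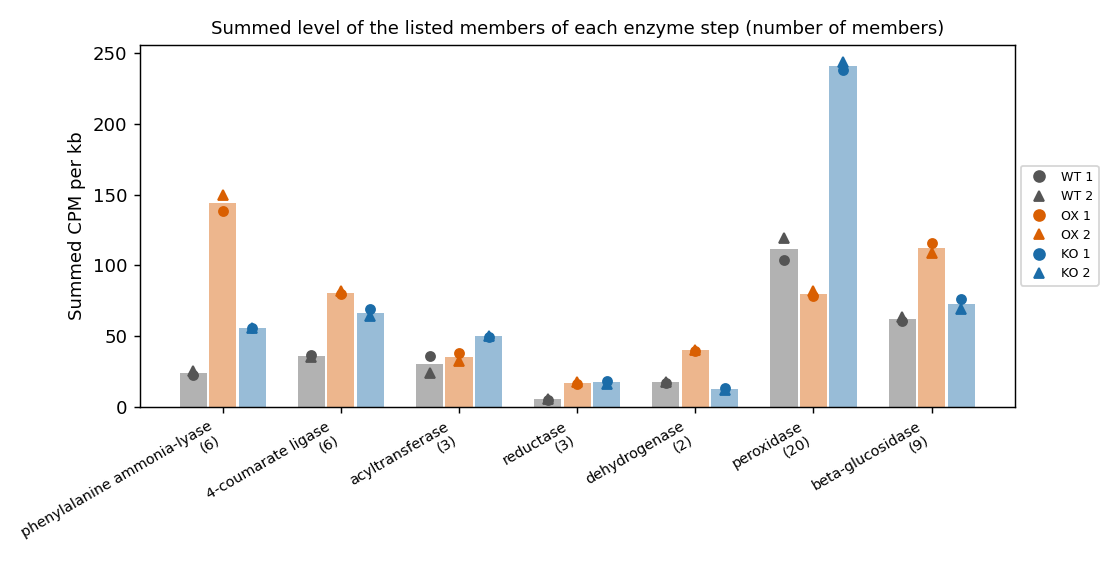
Bars give the mean over 2 libraries of the summed level of the listed members of 7 enzyme groups in CPM per kb, symbols give each library, and the number of members stands in brackets. PAL is highest in OX at 138 and 149 CPM per kb, and peroxidases are highest in KO at 238 and 244 CPM per kb.

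The class III peroxidases, which oxidise monolignols and other phenolics in the wall, were highest in KO by their summed level. Of 19 tested peroxidases, 3 were higher and 3 lower in OX than in WT, 5 were higher and 1 lower in KO than in WT, and 1 was higher and 8 lower in OX than in KO. The shares called in OX against WT, 15.8% higher and 15.8% lower, lay below the 25.0% and 19.0% of all tested transcripts, and the 26.3% called higher in KO than in WT lay near the background of 25.0%. The split of OX against WT was 3 higher and 5 lower with DESeq2 size factors, 5 and 2 with plain totals or without library WT 2, 3 and 2 under the replicate block or without library WT 1, 2 and 2 without library OX 2, and 1 and 3 without library OX 1. The lower calls of OX against KO made up 42.1% of the tested peroxidases, where 25.0% of all tested transcripts were called lower. The number of these calls was 3 with either scaling on the listed transcripts, 5 with plain library totals, and 3 or 4 when any 1 OX or KO library was left out, and DESeq2 made 10. The 1 higher call was lost without any 1 OX or KO library. Summed over all 20, the peroxidase level was 104 and 119 CPM per kb in WT, 78.2 and 81.7 CPM per kb in OX and 238 and 244 CPM per kb in KO. Peroxidases thus formed 31.4% and 34.7% of the summed level of all members in WT, while in OX they formed 13.2% and 13.6% and in KO 41.7% and 43.1%.

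Os07g0677400 carried much of the level in KO. It measured 34.3 and 37.2 CPM in WT, 29.1 and 33.1 CPM in OX and 149 and 152 CPM in KO. Both KO libraries stood far above the other 4, and KO exceeded WT by 2.07 ± 0.09 (adjusted p = 0.000161) on the log2 scale. OX against WT was -0.20 ± 0.08 (adjusted p = 0.344), and OX against KO was -2.27 ± 0.09 (adjusted p = 0.000144). Os02g0240300, similar to a class III peroxidase, changed in both directions, at 24.1 and 27.4 CPM in WT, 4.16 and 4.27 CPM in OX and 55.2 and 57.6 CPM in KO. The log2 fold change was -2.61 ± 0.10 in OX against WT (adjusted p = 0.000137), 1.13 ± 0.09 in KO against WT (adjusted p = 0.00148) and -3.74 ± 0.11 in OX against KO (adjusted p = 8.70e-05). All 3 groups were separate, with OX lowest and KO highest.

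Os08g0113000, similar to peroxidase 47, followed Os07g0677400 at a lower level, with 1.86 and 2.14 CPM in WT, 1.51 and 1.46 CPM in OX and 7.71 and 8.30 CPM in KO, and KO exceeded WT by 2.0 ± 0.21 (adjusted p = 0.00333). Os07g0677200 measured 17.0 and 22.0 CPM in WT, 23.9 and 24.5 CPM in OX and 41.0 and 41.7 CPM in KO, a log2 excess of KO over WT of 1.08 ± 0.14 (adjusted p = 0.00691). Its KO call against WT ended with size factors from DESeq2 (0.0540) and without library KO 2 (0.0516), and its OX call against KO, -0.77 ± 0.13, ended with size factors from DESeq2 (0.125), with TMM factors (0.199) and without library OX 1 or 2 or KO 1 or 2 (0.115 to 0.134). Os01g0787000 was raised in both modified genotypes, at 0.968 and 0.461 CPM in WT, 5.17 and 4.06 CPM in OX and 5.71 and 4.31 CPM in KO. Its log2 fold change was 2.68 ± 0.41 in OX (adjusted p = 0.0128) and 2.80 ± 0.41 in KO (adjusted p = 0.0128), the latter being the largest of any member in KO. The OX call ended without library OX 1 (0.0687), and the KO call ended without library KO 1 (0.0683).

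Os04g0688500 measured 3.18 and 1.93 CPM in WT, 1.13 and 0.292 CPM in OX and 7.59 and 6.69 CPM in KO, and OX was lower than KO (log2 fold change -3.32 ± 0.66, adjusted p = 0.0395), a call that ended with size factors from DESeq2 (0.0591), with TMM factors (0.0631), with plain totals (0.0514) and without library WT 1 or 2, OX 2 or KO 1 or 2 (0.0525 to 0.151). Os07g0115300 measured 1.67 and 1.72 CPM in WT, 0.221 and 0.409 CPM in OX and 2.11 and 1.06 CPM in KO and was lower in OX than in WT (log2 fold change -2.40 ± 0.50, adjusted p = 0.0384) and than in KO (-2.31 ± 0.50, adjusted p = 0.0494). The first of these calls ended with plain totals (0.0628), under the replicate block (0.0837) and without library WT 1 or 2 or OX 1 or 2 (0.0986 to 0.194), and the second ended with size factors from DESeq2 (0.0811), with TMM factors (0.0900), with plain totals (0.0644), under the replicate block (0.109) and without library WT 1 or 2, OX 1 or 2 or KO 1 (0.100 to 0.243).

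Of the other called peroxidases, chosen here after their values were seen, Os03g0762300, similar to peroxidase 51, fell in both genotypes. It had the highest peroxidase level per length in WT, 29.1 CPM per kb, and measured 34.3 and 37.5 CPM in WT, 10.9 and 11.6 CPM in OX and 17.3 and 19.4 CPM in KO, with a log2 fold change of -1.68 ± 0.11 in OX (adjusted p = 0.000589) and -0.97 ± 0.11 in KO (adjusted p = 0.00448). Its lower level in OX than in KO, -0.71 ± 0.11, lost its call with size factors from DESeq2 (0.107), with TMM factors (0.170) and without library OX 1 or 2 or KO 2 (0.0691 to 0.0959). Os07g0676900 and Os07g0677500, neighbours of Os07g0677400, had another pattern. Os07g0677500 measured 2.83 and 3.35 CPM in WT, 8.44 and 9.12 CPM in OX and 3.45 and 3.22 CPM in KO and rose in OX by 1.51 ± 0.19 (adjusted p = 0.00617), a call that ended without library OX 2 (0.0524). Its excess of OX over KO, 1.40 ± 0.19, was lost without library OX 1 or 2 or KO 1 or 2 (0.0584 to 0.0745). Os07g0676900 measured 2.94 and 2.97 CPM in WT, 7.84 and 6.93 CPM in OX and 4.68 and 4.28 CPM in KO and rose in OX by 1.32 ± 0.19 (adjusted p = 0.00893), a call that ended without library OX 1 (0.0684). OX was called higher than KO for it with DESeq2 (0.0339) and with each of the 3 other scalings (0.0211 to 0.0411). Os06g0306300 measured 1.55 and 2.39 CPM in WT, 0.882 and 0.818 CPM in OX and 2.42 and 2.67 CPM in KO and was called by edgeR in OX against KO, at -1.58 ± 0.31 (adjusted p = 0.0358), and this ended with size factors from DESeq2 (0.0768), with TMM factors (0.0917), with plain totals (0.0536), under the replicate block (0.0662) and without library OX 1 or 2 or KO 1 or 2 (0.125 to 0.198). The remaining 8 tested peroxidases, at 0.221 to 5.12 CPM over all libraries, were called by edgeR in no comparison. DESeq2 called Os04g0688300 (log2 fold change -1.91, adjusted p = 0.0408) and Os06g0695500 (-1.19, 0.0311) lower in OX than in KO. In OX against WT, Os05g0499400 was called lower with DESeq2 size factors (-1.25, 0.0474) and Os01g0327400 higher with plain totals (1.39, 0.0491) and without library WT 2 (1.50, 0.0483).

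The 4 neighbours on chromosome 7, between positions 28660188 and 28690371, thus did not share one set of calls. Os07g0677200 and Os07g0677400 were higher in KO than in WT, and Os07g0676900 and Os07g0677500 were higher in OX than in WT. A second tandem group of 3 peroxidases, on chromosome 4 between 35187454 and 35216755, held Os04g0688100, Os04g0688300 and Os04g0688500, of which edgeR called the last, and DESeq2 also called Os04g0688300, both lower in OX than in KO. As with PAL, similar neighbours may share reads.

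**Figure D4:**
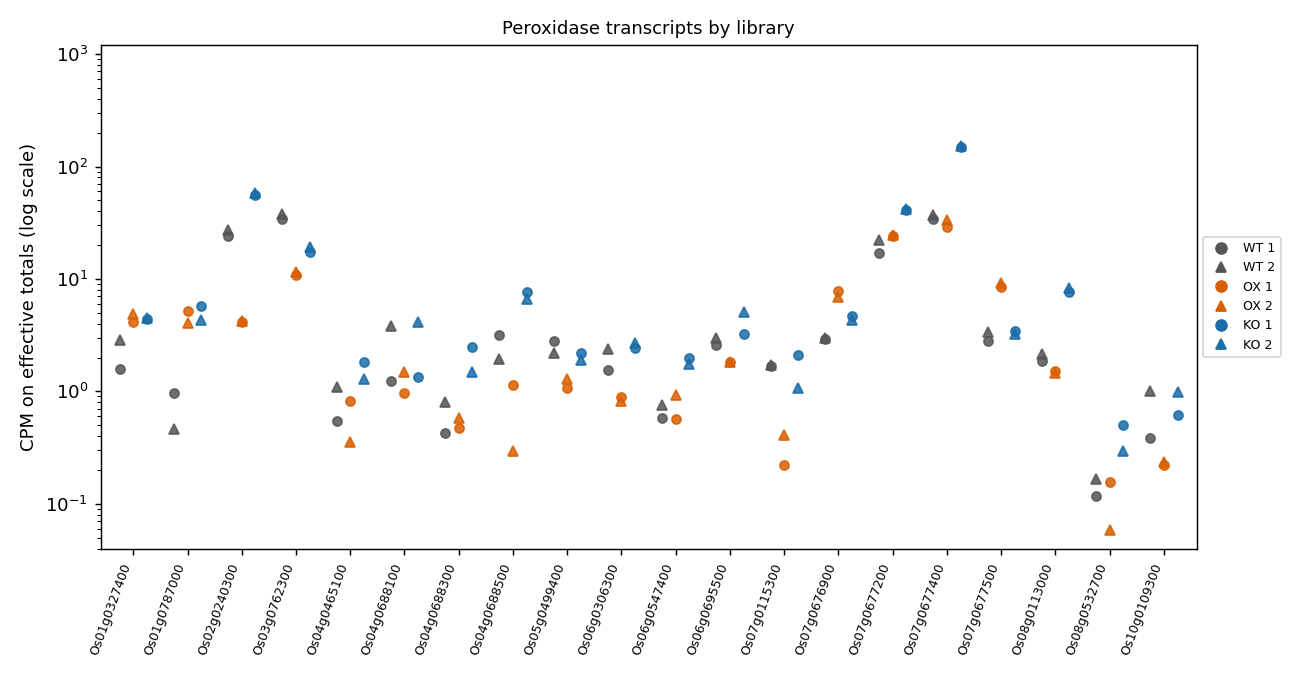
CPM of the 20 peroxidase transcripts on a log axis, one symbol per library, with WT in grey, OX in orange and KO in blue. Os07g0677400 reaches 149 and 152 CPM in KO, and Os02g0240300 falls to 4.16 and 4.27 CPM in OX.

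The 9 members described as glycoside hydrolases included some that rose and 1 that fell in OX. Os06g0320200, which shares their other maps but not such a description, is not among these 9. It fell in OX too and is given with the remaining members. Of 9, 3 were higher and 1 lower in OX than in WT, and the same numbers were called for OX against KO. In each of these comparisons 33.3% were called higher and 11.1% lower. Of all tested transcripts, 25.0% and 19.0% were so called in OX against WT, and 13.3% and 25.0% in OX against KO. The higher calls in OX against WT numbered 5 with DESeq2 and under the replicate block, which added Os08g0509400 and Os03g0749300. In KO against WT, edgeR called 0 of 9, where 25.0% of all tested transcripts were called higher and 11.0% lower. Of the 9, 3 had an unadjusted edgeR p below 0.05, while DESeq2 called 1 higher and 1 lower. With scaling on the listed transcripts 2 were called lower in KO, and with plain totals or the replicate block 1 higher. Their summed level was 61.0 and 63.3 CPM per kb in WT, 116 and 109 CPM per kb in OX and 76.5 and 69.3 CPM per kb in KO.

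The family 1 glycoside hydrolase Os01g0897600 was the most abundant of these per length, with 25.1 CPM per kb in WT. It measured 41.9 and 45.0 CPM in WT, 107 and 106 CPM in OX and 46.1 and 44.1 CPM in KO. Both OX libraries stood above the rest, by 1.29 ± 0.07 against WT (adjusted p = 0.000262) and 1.24 ± 0.07 against KO (adjusted p = 0.000351) on the log2 scale. Its KO value against WT was 0.05 ± 0.06, which became -0.44 with DESeq2 size factors and -0.35 with TMM factors of the listed transcripts, both called. Os01g0508000, similar to a beta-glucosidase, measured 7.98 and 8.80 CPM in WT, 30.7 and 29.0 CPM in OX and 10.7 and 13.1 CPM in KO and rose in OX by 1.83 ± 0.14 (adjusted p = 0.00101). The family 3 hydrolase Os05g0449600 measured 12.0 and 10.4 CPM in WT, 27.9 and 30.6 CPM in OX and 12.9 and 15.3 CPM in KO and rose in OX by 1.38 ± 0.14 (adjusted p = 0.00261). Its excess over KO, 1.05 ± 0.14, lost its call without library OX 2 or KO 1 (0.0561 to 0.0610).

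Os03g0749500, similar to an exo-beta-glucanase, fell in OX, at 53.2 and 57.8 CPM in WT, 15.6 and 17.6 CPM in OX and 43.0 and 40.1 CPM in KO. The log2 fold change in OX was -1.74 ± 0.10 (adjusted p = 0.000363), and OX against KO was -1.32 ± 0.10 (adjusted p = 0.000972). Its neighbour Os03g0749300, similar to an exoglucanase, lies within the same stretch of chromosome 3, from 30853039 to 30887955. It measured 9.99 and 6.33 CPM in WT, 42.2 and 13.8 CPM in OX and 55.8 and 29.6 CPM in KO, and its libraries differed widely within OX and within KO. With edgeR no comparison was called for it. DESeq2 called it higher than WT in OX (log2 fold change 1.78, adjusted p = 0.0245) and in KO (2.39, 0.000827), and so did edgeR with the replicate block (0.0399 and 0.0173), the first replicate being the higher library in each group. Os03g0749300 was chosen for mention after its values were seen. The other 4 hydrolases that edgeR did not call lay at 0.117 to 5.58 CPM over all libraries.

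**Figure D5:**
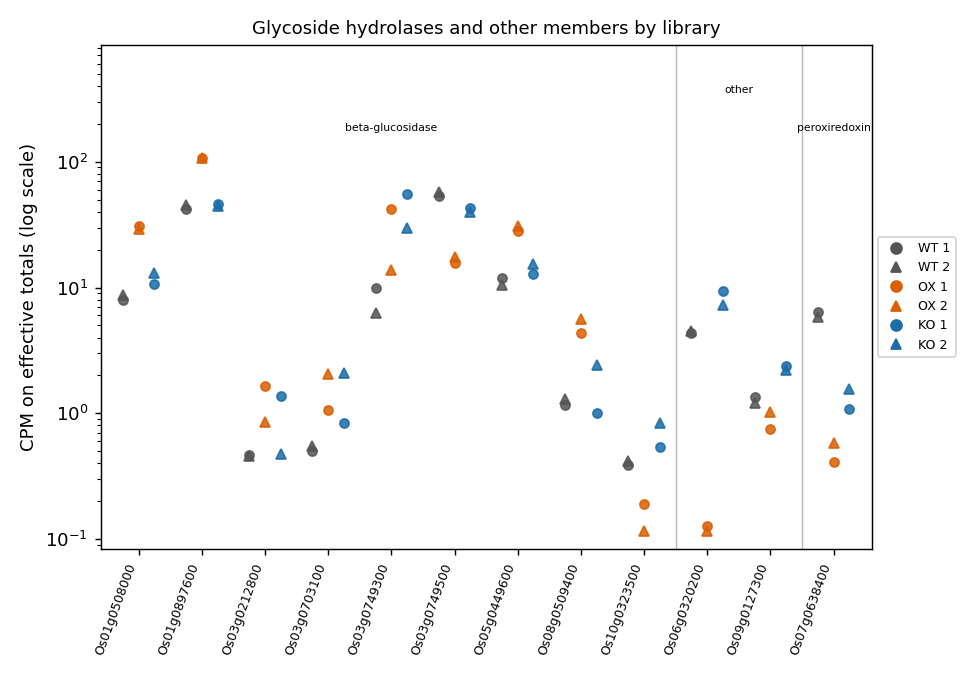
CPM of the 9 glycoside hydrolases, the 2 unclassified members and the peroxiredoxin on a log axis, one symbol per library, with WT in grey, OX in orange and KO in blue. Os01g0897600 stands at 107 and 106 CPM in OX against 41.9 and 45.0 CPM in WT, and Os06g0320200 lies at 0.126 and 0.117 CPM in OX.

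The remaining members changed mainly in the lower direction in OX. Os06g0320200, whose description names no function, had the largest fall. Its other maps include starch and sucrose metabolism and cyanoamino acid metabolism. Among members, these 2 maps otherwise hold only the 9 glycoside hydrolases, with which Os06g0320200 was not counted. Os06g0320200 was thus left unclassified by its description alone. It measured 4.38 and 4.48 CPM in WT, 0.126 and 0.117 CPM in OX and 9.43 and 7.28 CPM in KO, and its log2 fold change was -5.14 ± 0.29 against WT (adjusted p = 0.000351) and -6.05 ± 0.29 against KO (adjusted p = 0.000273). KO was above WT by 0.91 ± 0.22 (adjusted p = 0.0684). The 1-Cys peroxiredoxin Os07g0638400, a type of enzyme that reduces peroxides and that the map holds beside the peroxidases, measured 6.35 and 5.87 CPM in WT, 0.410 and 0.585 CPM in OX and 1.07 and 1.57 CPM in KO. Against WT its log2 fold change was -3.60 ± 0.33 in OX (adjusted p = 0.00193) and -2.20 ± 0.31 in KO (adjusted p = 0.0107), and the KO call ended without library WT 1 or KO 1 (0.0545 to 0.0666). The NAD(P)-binding protein Os09g0127300 measured 1.36 and 1.21 CPM in WT, 0.756 and 1.02 CPM in OX and 2.38 and 2.19 CPM in KO, and its difference between OX and KO, -1.36 ± 0.29 (adjusted p = 0.0442), ended with size factors from DESeq2 (0.111), with TMM factors (0.130), with plain totals (0.0704), under the replicate block (0.0965) and without any 1 of the 6 libraries (0.0768 to 0.235).

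Transcripts of related enzymes outside the map were read from lists matched to the descriptions. The supply of phenylalanine through the shikimate pathway had 7 listed transcripts. Of these, 3 were higher and 1 lower in OX than in WT, and 3 higher in KO than in WT. The shares in OX were 42.9% higher and 14.3% lower, beside 25.0% and 19.0% of all tested transcripts. The 42.9% called higher in KO stood beside 25.0%. Prephenate dehydratase, which acts on the route to phenylalanine, was called higher in KO for 3 transcripts. The most abundant, Os10g0523700, measured 59.4 and 62.6 CPM in WT, 68.6 and 79.2 CPM in OX and 170.9 and 174 CPM in KO, a log2 fold change of 1.50 ± 0.08 in KO (adjusted p = 0.000379). The other two, Os07g0694600 and Os04g0406600, were called higher in OX too, by 1.51 ± 0.15 and 0.99 ± 0.22. Os06g0133900, similar to the shikimate enzyme 3-phosphoshikimate 1-carboxyvinyltransferase, rose in OX by 1.10 ± 0.13 (adjusted p = 0.00418), and Os10g0564400, similar to the first enzyme of the pathway, fell in OX (log2 fold change -1.93 ± 0.27, adjusted p = 0.00869).

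Among 10 other hydroxycinnamate transcripts outside the map, 5 were higher and 2 lower in OX than in WT, and 2 were lower in KO. The shares in OX were 50% higher and 20% lower, beside 25.0% and 19.0% of all tested transcripts. The 20% called lower in KO stood beside 11.0%. This list also holds the further transcripts of 2 PAL genes. Caffeoyl-CoA O-methyltransferase, which methylates lignin precursors as their CoA esters, was represented by the genes Os08g0498100 and Os08g0498400. Os08g0498100 measured 30.3 and 31.5 CPM in WT, 81.1 and 82.0 CPM in OX and 34.0 and 34.4 CPM in KO, and OX exceeded WT by 1.40 ± 0.06 (adjusted p = 0.000191). Both listed transcripts of Os08g0498400 were higher in OX than in WT, by 2.84 ± 0.32 (adjusted p = 0.00574) and 1.84 ± 0.22 (adjusted p = 0.00512). The remaining higher calls in OX were further transcripts of the PAL genes Os02g0626100 and Os02g0626400. Cinnamyl alcohol dehydrogenase, which makes monolignols from aldehydes, was lower in both genotypes. Os09g0400300 measured 299.8 and 329 CPM in WT, 103 and 108 CPM in OX and 179 and 178 CPM in KO, with a log2 fold change of -1.57 ± 0.06 in OX (adjusted p = 0.000152) and -0.82 ± 0.06 in KO (adjusted p = 0.00104). Its neighbour Os09g0400000 fell with log2 fold changes of -1.66 ± 0.08 in OX and -0.75 ± 0.08 in KO. In OX, therefore, the sinapyl alcohol dehydrogenase of the map was higher and these 2 cinnamyl alcohol dehydrogenases were lower. The 2 listed laccases, Os12g0257600 and Os01g0850550, passed the test in no comparison, with adjusted p of 0.140 and 0.0851 for KO against WT. Of 5 peroxidase transcripts outside the map, Os03g0121200 was called higher in KO than in WT, by 2.18 ± 0.36. Os05g0134400 was called higher in OX than in KO, by 2.58 ± 0.47. Each of these calls made up 20% of the 5. Of all tested transcripts, 25.0% were higher in the first comparison and 13.3% in the second. The 5 include a further transcript each of Os07g0677200 and Os03g0762300, peroxidase genes of the map, and neither transcript was called. No listed description matched the regulators looked for.

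Candidate markers of other leaf cells were picked from the listed transcripts by description or gene. Of the 2 listed transcripts of secondary walls and vessels, the cellulose synthase Os01g0750300 measured 0.891 and 1.42 CPM in WT, 12.6 and 12.8 CPM in OX and 1.34 and 1.06 CPM in KO and was higher in OX than in WT by 3.45 ± 0.30 (adjusted p = 0.00146). The xylem cysteine proteinase Os05g0108600 measured 0.620 and 0.587 CPM in WT, 0.189 and 0.117 CPM in OX and 0.345 and 0.804 CPM in KO and was not called. The list for epidermis and cuticle held 10 transcripts, GDSL lipases and a 3-ketoacyl-CoA synthase, whose descriptions name no cell type. Of these, 4 were higher and 1 lower in OX than in WT, and 2 higher and 2 lower in KO. The shares in OX were 40% higher and 10% lower, beside 25.0% and 19.0% of all tested transcripts. Those in KO were 20% and 20%, beside 25.0% and 11.0%. The summed levels of the 10 were 31.5 and 36.3 CPM in WT, 54.6 and 59.8 CPM in OX and 36.8 and 35.4 CPM in KO. The list for dividing cells held 36 transcripts whose descriptions name a histone, a cyclin or a tubulin. It took in transcripts such as Cyclin-T1-1 and a tubulin folding cofactor, whose descriptions do not name cell division. Of these 36, 9 were higher and 8 lower in OX than in WT, and 10 higher and 10 lower in KO. The shares called in OX, 25.0% higher and 22.2% lower, lay near the 25.0% and 19.0% of all tested transcripts, and those in KO were 27.8% and 27.8%, beside 25.0% and 11.0%. Their summed level was 1582 and 1702 CPM in WT, 986 and 999.96 CPM in OX and 833 and 824 CPM in KO. Every listed transcript has a count of at least 1 in each library, so none of these markers was listed at 0, and no listed transcript matched the root list. The part of a change in cell makeup in the pathway's differences was not tested.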

How the data were processed

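Poly(A) RNA libraries were made with a stranded mRNA kit, per the labels' protocols, and the submitters' processing notes name the IRGSP-1.0 build. The aligner, the counter and the authors' test are not given in sources used here. The authors deposited estimated counts per transcript, whole numbers of at least 1, together with FPKM (scaled to length and depth) and TPM, per the file headers. At least 99.9% of the deposited counts equal the reads implied by FPKM, rounded up, within 0.02 below and 1.02 above. The authors' deposited log2 values are normalised on effective library totals, recovered from them here, and their deposited fold changes and p-values served to check their selection and the 27384 transcripts they tested. In the authors' deposited table, 38 members passed a fold of 2 with unadjusted p below 0.05 between OX and WT, 25 between KO and WT and 36 between KO and OX.

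The whole table was fitted with edgeR 4.0.16 in R 4.3.3 (quasi-likelihood test, robust, 1 fit of 6 libraries, group only, effective totals as library sizes). The filter filterByExpr kept 7034 transcripts, and p-values were adjusted over 27384. SE is the log2 fold change divided by the square root of F. The fit was also run on counts simulated with its own estimates of spread, which cannot show whether those estimates hold for these data. Libraries of a group differed beyond sampling noise (chi-square per degree of freedom 13.9 to 19.8). Alternatives were 3 library scalings, no filter, DESeq2 1.42.0, adjustment over listed transcripts, the replicate number as a block, and leaving out each library. Adjustment over listed transcripts cannot raise an adjusted p-value, so that alternative could remove no call.

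Members, lists, tests and alternatives were chosen with earlier results of these data known. Every member of a group of up to 8 is named, and in larger groups the 3 most abundant and the 5 with the largest called changes, besides the extremes of each comparison. One member, included in the counts and totals over the pathway, is not reported here. Sequences are not used here.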

Additional observations from a re-analysis of the deposited data

How the results depend on the processing

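Of the calls on members, 22 of 31 in OX against WT, 14 of 22 in KO against WT and 17 of 32 in OX against KO held under all 13 alternatives. Relative to the authors' effective totals, DESeq2 size factors, TMM factors and plain totals shifted the median log2 fold change of all tested transcripts by -0.17, -0.02 and 0.37 for OX against WT, by -0.49, -0.40 and 0.19 for KO against WT, and by 0.32, 0.38 and 0.17 for OX against KO. Members called lower in KO than in WT numbered 4, and 9 with DESeq2 size factors, 9 with TMM factors and 2 with plain totals. Members called lower in OX than in KO numbered 16, and 8 with either DESeq2 size factors or TMM factors. The cause was not tested. Leaving out 1 library, where a lone library is assumed to vary like the other groups, gave 17 to 22 higher and 7 to 8 lower calls in OX against WT, 14 to 16 higher and 1 to 3 lower in KO against WT, and 10 to 16 higher and 8 to 14 lower in OX against KO. The lowest were 1 lower call in KO against WT without WT library 1, 2 without either KO library, 10 higher calls in OX against KO without KO library 1, and 8 or 9 lower calls there without any 1 OX or KO library. For KO against WT, Os01g0897600 moved from 0.05 to -0.44 and -0.35 with DESeq2 size factors and TMM factors. Over all tested transcripts, deviations of same-numbered libraries correlated only weakly, at 0.0771 (WT and OX), 0.0232 (WT and KO) and 0.0159 (OX and KO). Single transcripts could still vary with the replicate number, as Os03g0749300 did. With the replicate block, calls were 22 higher and 7 lower in OX against WT, 18 and 4 in KO against WT, and 15 and 12 in OX against KO.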
